A study of Mus musculus with 40 samples.

Results

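Complement is the blood-borne cascade of proteins that marks and punctures microbes and damaged cells, and the genes followed here are 9 of its components and regulators measured in mouse kidney: C1ra, C4b, C2, C3, Cfb, Serping1, Cfi, Cd55 and C3ar1. They are a set of gene names, taken with no threshold on a measured value but with earlier results of these data known, and were found by their Ensembl identifiers among 55359 gene identifiers in the count files. All 9 passed the filter on low counts that left 17345 genes for testing. RNA came from the right kidney of 40 male C57BL/6 mice in 8 groups of 5. Dosing was by gavage into the stomach at 4-day intervals over 28 days, beginning on day 30 of age and ending on day 58. The vehicle group received sesame oil, and the other groups received TCDD (2,3,7,8-tetrachlorodibenzodioxin) in sesame oil at 0.03, 0.1, 0.3, 1, 3, 10 or 30 µg/kg. TCDD is a dioxin that binds the aryl hydrocarbon receptor (AhR), a ligand-activated transcription factor. The comparisons below ask at which dose each complement transcript departed from vehicle.

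Complement is started by C1q with its proteases C1r and C1s, by lectins, or by spontaneous turnover of C3 with factor B. Each route builds a convertase that splits C3, the step on which the cascade converges, and fragments released there act on receptors of myeloid cells. Most circulating complement is made by the liver, but kidney tubule cells, endothelium and resident macrophages also transcribe complement genes, and complement in the kidney is best known for its part in glomerular and tubular injury. Inhibitors in plasma and on cell surfaces limit each step.

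The 40 libraries held 15278423 to 25575317 counts in genes. Levels are given as CPM, gene counts relative to library size, scaled by the trimmed mean of M-values (TMM). The proximal tubule markers Slc34a1 and Lrp2 were at 3811 to 8178 and 2237 to 3861 CPM, as for kidney tissue, and the AhR target Cyp1a1 averaged 2.37 ± 1.25 CPM in vehicle libraries (SD, n = 5) and 2537 ± 436 CPM in those of the top dose. On the second principal component, with 6.67% of the variance, vehicle libraries 1 and 2 lay at 34.7 and 34.9 and library 3 of the 30 µg/kg group at 58.8, while the other vehicle libraries lay between 4.35 and 14. The same 2 vehicle libraries held 29.7 and 28.5 CPM of the macrophage receptor gene Csf1r, against 76.8, 84.4 and 80.5 CPM in the other vehicle libraries. Counts of complement genes called are given below also without vehicle libraries 1 and 2.

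The RefSeq promoter table (GRCm38.p6) held windows for C1ra, C3, Cd55 and C3ar1, 4 of the 9 genes. All 4 are shown, and the other genes had no window in the table. The dose profiles of the 4 differed: C3 rose at the top dose, C1ra and C3ar1 rose from lower doses and Cd55 fell at the top dose. Each window runs from 250 bases before the gene's start to 50 bases after it and is written 5′ to 3′ on the gene's strand. Capitals mark every match, on either strand, to TTCNNNGAA (GAS, a STAT site), GAAANNGAA (ISRE, an interferon response site), TTGCNNAA (C/EBP) or GCGTG (the core of an AhR site). No matches overlapped.
C1ra, chr6:124512371-124512670, plus strand: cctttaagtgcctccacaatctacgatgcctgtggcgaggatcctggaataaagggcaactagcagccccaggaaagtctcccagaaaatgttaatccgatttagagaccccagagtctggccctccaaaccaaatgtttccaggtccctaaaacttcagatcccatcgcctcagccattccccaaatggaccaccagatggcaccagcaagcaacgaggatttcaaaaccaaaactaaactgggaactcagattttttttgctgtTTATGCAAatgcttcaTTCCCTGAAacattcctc
C3, chr17:57228087-57228386, minus strand: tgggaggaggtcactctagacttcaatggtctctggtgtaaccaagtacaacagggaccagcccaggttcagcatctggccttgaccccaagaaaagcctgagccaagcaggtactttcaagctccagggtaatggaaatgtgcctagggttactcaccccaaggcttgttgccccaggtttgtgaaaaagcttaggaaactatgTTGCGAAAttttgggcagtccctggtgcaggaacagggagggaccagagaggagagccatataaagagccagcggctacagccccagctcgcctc
Cd55, chr1:130462695-130462994, minus strand: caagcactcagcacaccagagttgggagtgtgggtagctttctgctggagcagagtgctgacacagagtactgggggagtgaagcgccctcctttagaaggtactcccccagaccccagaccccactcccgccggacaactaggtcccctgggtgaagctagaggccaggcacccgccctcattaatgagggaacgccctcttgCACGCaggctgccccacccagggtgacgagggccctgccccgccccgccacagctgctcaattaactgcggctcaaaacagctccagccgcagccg
C3ar1, chr6:122856108-122856407, minus strand: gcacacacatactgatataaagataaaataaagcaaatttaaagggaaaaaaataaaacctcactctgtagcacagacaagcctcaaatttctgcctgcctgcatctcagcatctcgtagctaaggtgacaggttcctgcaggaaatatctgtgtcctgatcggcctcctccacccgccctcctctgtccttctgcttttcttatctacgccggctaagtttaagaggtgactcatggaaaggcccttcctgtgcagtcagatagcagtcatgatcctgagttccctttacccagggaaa
The C1ra window held 1 GAS match, TTCCCTGAA, after the start, and 1 C/EBP match. GAS letters occurred in 8.3% of the 32851 windows of this length in the table and C/EBP letters in 10.8%. The C3 window held the C/EBP match TTGCGAAA at positions -45 to -38 from the start. The Cd55 window held 1 AhR core, CACGC on the printed strand, and AhR core letters occurred in 32.4% of windows. ISRE letters, found in 8.56% of windows, were in none of the 4, and the C3ar1 window held none of the 4 motifs. A match of letters is a description and not a shown binding site.

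At the lower doses no complement gene of the 9 passed the test, and the number that did grew with dose. A gene was called when its adjusted p in edgeR's quasi-likelihood test (Benjamini-Hochberg over all 17345 genes) was under 0.05. None of the 9 was called at 0.03, 0.1 or 0.3 µg/kg, where 0%, 0% and 0.00577% of all tested genes were called. At these 3 doses none of the 9 had an unadjusted p under 0.05 either, and DESeq2 and limma-voom also called 0. At 1 µg/kg 1 gene was called, C4b, against 0.513% of all tested genes. At 3 µg/kg C4b and C3ar1 were called, against 1.09%. At 10 µg/kg 4 were called, C4b, C3ar1, C1ra and Serping1, all higher, against 4.82%. At 30 µg/kg 5 were called, against 15.9%: C3, C3ar1, C1ra and Serping1 were higher, where 8.39% of all genes were, and Cd55 was lower, where 7.55% were. Without vehicle libraries 1 and 2 the counts at 1, 3 and 10 µg/kg were again 1, 2 and 4, and 7 were called at 30 µg/kg, C4b and C2 being the 2 added. The median log2 fold change of the 9 genes at 30 µg/kg was 0.58, beside 0.01 over all tested genes. A linear trend over the dose ranks called 6 of the 9, all rising, against 19.8% of all genes in either direction and 11% rising. Cfb and Cfi were called in no edgeR comparison. In bulk tissue, more transcript per cell and more cells that carry the transcript cannot be told apart.

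**Figure D1:**
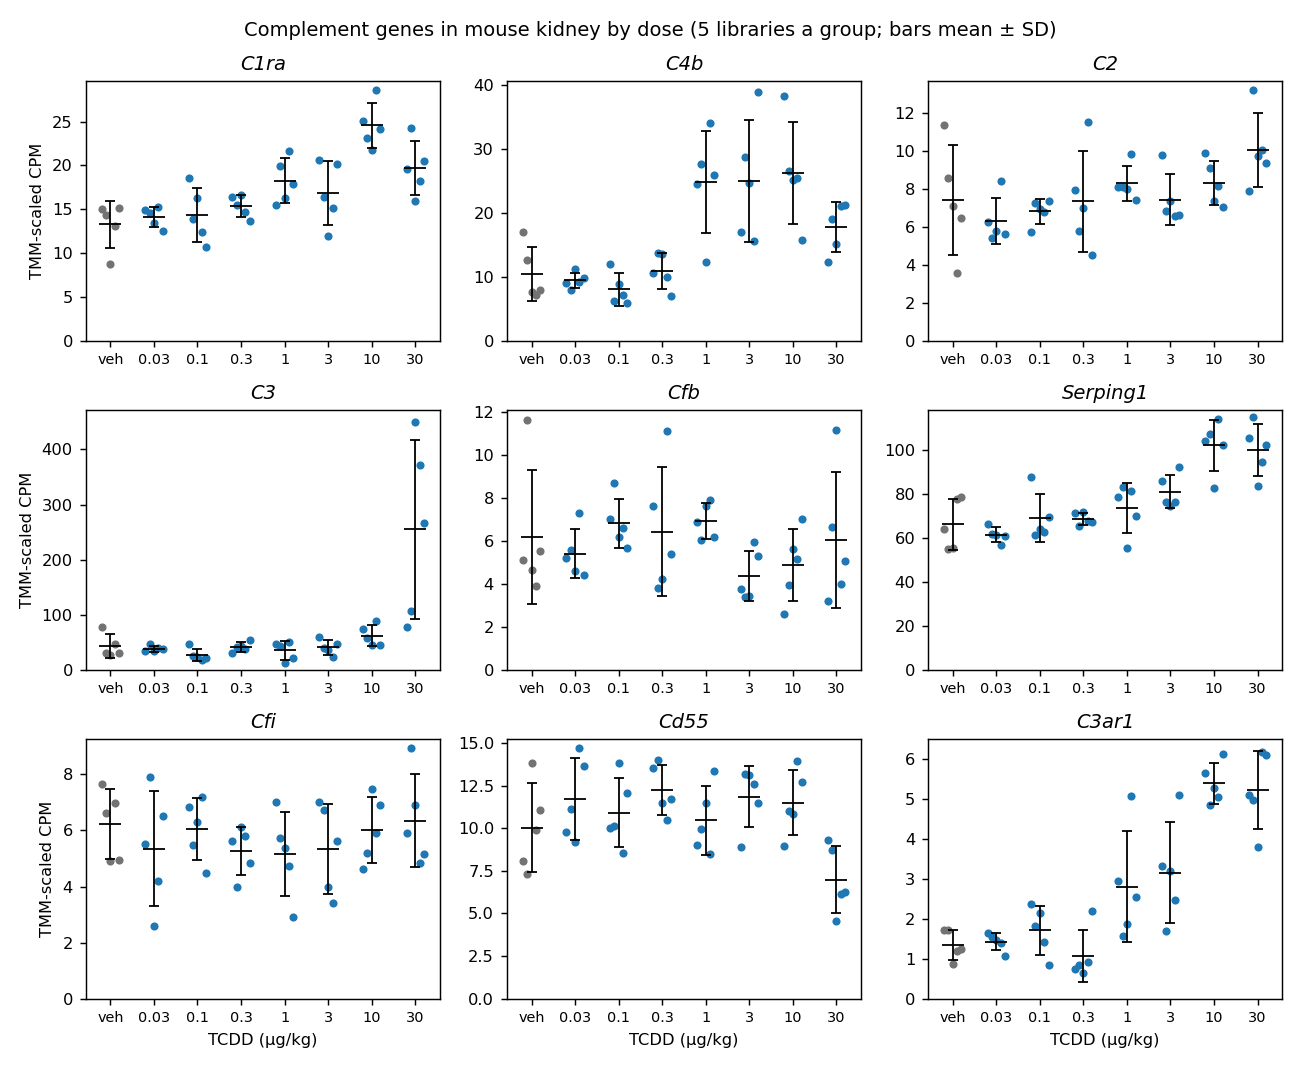
Each point is 1 kidney library (TMM-scaled CPM, vertical axes from 0), grouped by TCDD dose in µg/kg with vehicle (veh) in grey, and bars are mean ± SD of 5 libraries. C4b steps up at 1 µg/kg, C3ar1, C1ra and Serping1 separate from vehicle at 10 and 30 µg/kg, and C3 is high in 3 libraries at 30 µg/kg.

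C1ra encodes C1r, the protease that C1q activates and that in turn cleaves C1s at the head of the classical pathway. It rose at the upper doses by less than 2-fold. Vehicle libraries held 15.0, 14.3, 8.73, 13.1 and 15.2 CPM. At 10 µg/kg the libraries held 25.0, 23.2, 21.8, 28.6 and 24.2 CPM, and at 30 µg/kg 19.6, 24.3, 15.9, 18.2 and 20.5 CPM. All 10 lay above every vehicle library, where 6.15% and 6.41% of tested genes did not overlap vehicle in either direction at these doses. The highest C1ra levels were those at 10 µg/kg. C1ra's log2 fold change was 0.89 ± 0.14 (SE) at 10 µg/kg (edgeR adjusted p = 1.78e-05) and 0.58 ± 0.14 at 30 µg/kg (adjusted p = 0.00317). The means at 30 and 10 µg/kg differed by -0.32 ± 0.14 on the log2 scale, which was not called (adjusted p = 0.257). At 1 µg/kg the C1ra libraries, 15.5 to 21.6 CPM, also all lay above vehicle, as 1.74% of tested genes did not overlap vehicle there in either direction, but the change of 0.46 ± 0.14 was not called (adjusted p = 0.214). The trend slope was 0.11 log2 units per dose step (adjusted p = 2.51e-06). In GENCODE M21, 35.9% of the 100-base words of C1ra transcripts also occur in other genes, most of them in C1rb, and C1rb itself had at most 9 counts in a library, so a share of C1ra reads could have been set aside as not unique.

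C4b encodes C4, which C1s cleaves and which forms the classical C3 convertase together with C2. Of the 9 genes C4b was the one called against vehicle at the lowest dose, 1 µg/kg. C3ar1 was at 1.06 ± 0.31 there and was not called (edgeR adjusted p = 0.153). The mean of C4b stepped up between 0.3 and 1 µg/kg and then stayed near 25 CPM up to 10 µg/kg. Vehicle libraries held 17.0, 12.6, 7.56, 7.10 and 7.99 CPM, and the libraries from 0.03 to 0.3 µg/kg lay between 5.85 and 13.7 CPM. In the 1 µg/kg group C4b stood at 24.5, 27.6, 12.2, 34.0 and 25.9 CPM, and 4 of the 5 libraries were above every vehicle library. At 3 µg/kg it stood at 17.0, 28.7, 24.7, 15.6 and 39.0 CPM and at 10 µg/kg at 38.3, 26.5, 25.1, 25.5 and 15.8 CPM, again with 4 of 5 above vehicle at each dose. At 30 µg/kg the libraries held 12.3, 19.0, 15.1, 21.1 and 21.3 CPM, 3 of them above vehicle. Vehicle libraries 1 and 2, which stood apart on the second component, were the highest of their group.

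The log2 fold changes of C4b were 1.25 ± 0.28 at 1 µg/kg (edgeR adjusted p = 0.0199), 1.26 ± 0.28 at 3 µg/kg (adjusted p = 0.0108) and 1.33 ± 0.28 at 10 µg/kg (adjusted p = 0.00177). At 30 µg/kg C4b was at 0.77 ± 0.28 and was not called (adjusted p = 0.0556), although the call was gained with DESeq2 (0.0346), limma-voom (0.0369), non-robust estimation (0.034) and the second of the 2 deposited stranded counts (0.0359). It was also gained without vehicle library 1 (adjusted p = 0.0135), without library 1 at 30 µg/kg (0.0307), and without vehicle libraries 1 and 2 together, where the value was 1.23 (0.00658). The 30 and 10 µg/kg groups differed by -0.56 ± 0.27, which was not called (adjusted p = 0.327). The step from 0.3 to 1 µg/kg was 1.19 ± 0.28 (adjusted p = 0.062), on the far side of the threshold. Without library 3 of the 1 µg/kg group that step had an adjusted p of 0.00957. The trend over dose was called with a slope of 0.23 (adjusted p = 9.36e-05). The call at 1 µg/kg was lost when vehicle library 3, 4 or 5 or library 2 or 4 of the 1 µg/kg group was left out (adjusted p = 0.0889, 0.0793, 0.0721, 0.0586 and 0.101), and the call at 3 µg/kg when library 5 of that group was left out (adjusted p = 0.082). Fits of only the 10 libraries compared lost both (0.278 and 0.186), and the first stranded count lost that at 1 µg/kg (0.0612). C4b shares 15.2% of its 100-base words with C4a, its neighbouring near copy.

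C4b moved beside antigen presentation genes. Over the 40 libraries the genes whose log2 CPM was most like that of C4b were Tap1, the peptide transporter of MHC class I (Pearson r = 0.92, Spearman rho = 0.92), H2-DMb1 of MHC class II loading (0.91 and 0.91) and Cd74, the class II invariant chain (0.91 and 0.90). These correlations describe 40 libraries that share the dose groups and carry no test. In a list of 20 interferon-gamma targets that includes Tap1 and Cd74, 19 were called higher at 1 and at 3 µg/kg and 20 at 10 and at 30 µg/kg. The median log2 fold change of that list was 1.39, 1.39, 1.58 and 1.06 at those 4 doses, beside the C4b values of 1.25, 1.26, 1.33 and 0.77. The part of interferon signalling in the C4b change was not tested.

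C2 and Cfb encode the protease subunits of the classical and alternative C3 convertases, and neither was called at any single dose. The vehicle libraries had 3.55 to 11.4 CPM of C2 and the 30 µg/kg libraries 7.90 to 13.2 CPM, where its mean was 10.1 ± 1.96 CPM against 7.42 ± 2.89 CPM. The log2 change of C2 at 30 µg/kg was 0.43 ± 0.20 (edgeR adjusted p = 0.144), and 0.80 with an adjusted p of 0.00981 without vehicle libraries 1 and 2. Leaving out vehicle library 1 alone gave 0.64 with an adjusted p of 0.0264. The C2 trend was called with a slope of 0.07 (adjusted p = 0.0224) and was lost without the 30 µg/kg group (adjusted p = 0.376), without library 2 of that group (0.0749), without vehicle library 4 (0.0546) or with the first stranded count (0.161). Group means of Cfb lay between 4.37 and 6.93 CPM with no order by dose, and its largest change from vehicle was -0.50 ± 0.30 at 3 µg/kg (adjusted p = 0.664). A single vehicle library held 11.7 CPM of Cfb, against 3.88 to 5.55 CPM in the other 4. In GENCODE M21 the readthrough gene Gm20547 covers 42.8% of the exonic bases of C2 and 79.5% of those of Cfb on the same strand and had 0 counts in all 40 libraries. If the same model was used in counting, reads in those exons were set aside as ambiguous, so the levels of C2 and Cfb are uncertain.

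C3 is the central component, whose cleavage products coat surfaces and recruit leukocytes. It showed the largest change of the 9 genes, at the top dose, with a wide spread between mice. Vehicle libraries held 78.3, 30.9, 26.5, 47.0 and 30.1 CPM. From 0.03 to 3 µg/kg the C3 libraries lay between 12.8 and 60.0 CPM, and at 10 µg/kg they held 74.0, 57.5, 44.0, 88.7 and 45.2 CPM. At 30 µg/kg they held 77.5, 107, 449.7, 372 and 267 CPM. Libraries 3, 4 and 5 at 30 µg/kg were far above every other library, library 2 was moderately above vehicle, and library 1 lay just under the highest vehicle library, so that 4 of 5 exceeded vehicle.

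Mean C3 was 255 ± 162 CPM at 30 µg/kg against 42.6 ± 21.5 CPM in vehicle, which is 2.58 ± 0.41 on the log2 scale (edgeR adjusted p = 2.58e-05). C3 at 30 µg/kg also exceeded C3 at 10 µg/kg by 2.04 ± 0.40 (adjusted p = 0.00338) and C3 at 1 µg/kg by 2.86 ± 0.41 (adjusted p = 1.01e-05), comparisons that use no vehicle library. The change at 10 µg/kg was 0.55 ± 0.39 (adjusted p = 0.56). The trend slope of C3, 0.32 per dose step (adjusted p = 4.09e-05), rested on the top dose: without the 30 µg/kg group it was 0.08 (adjusted p = 0.32). Per kilobase of exon, the vehicle level of C3 was 8.28 ± 4.18 CPM per kb and that at the top dose 49.5 ± 31.6 CPM per kb, beside 28.4 ± 4.94 and 43 ± 5.12 CPM per kb for Serping1, the most abundant of the 9 in vehicle kidneys.

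The mice with high C3 also had high acute phase transcripts. Fga, the fibrinogen alpha chain, held 23.2, 26.2, 147, 99.2 and 53.1 CPM in the 5 libraries at 30 µg/kg, against 14.0 to 23.1 CPM in vehicle. Lcn2, encoding the iron-binding injury protein lipocalin 2, held 1.82, 2.6, 6.17, 6.79 and 5.96 CPM, against 0.861 to 2.72 CPM. For both genes libraries 3, 4 and 5 were high, as for C3. Of 15 listed acute phase and STAT3 targets 10 were tested, and 7 of those were called higher at 30 µg/kg and none at any lower dose. Their summed level was 137, 154, 405, 283 and 236 CPM in libraries 1 to 5 at 30 µg/kg and 93.4 to 130.3 CPM in vehicle. C3 is abundant in liver. The hepatocyte marker Alb was at 3.81, 9.05, 5.83, 2.81 and 2.48 CPM in those 5 libraries. In vehicle it was at 6.26 to 8.64 CPM. The summed hepatocyte list, which includes the fibrinogen genes, was 151, 123, 294, 343 and 286 CPM at 30 µg/kg, against 105 to 266 CPM in vehicle. At that dose 3 of its 9 tested genes were called higher and 1 lower. The summed adipocyte markers were 157 to 340.1 CPM at 30 µg/kg and 89.7 to 217 CPM in vehicle, highest in libraries 2, 4 and 5. The proximal tubule markers summed to 12710, 15500, 12830, 9164 and 8806 CPM in libraries 1 to 5 at 30 µg/kg. In vehicle they summed to 14220 to 17630 CPM. The part of any of these in the C3 change was not tested.

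**Figure D2:**
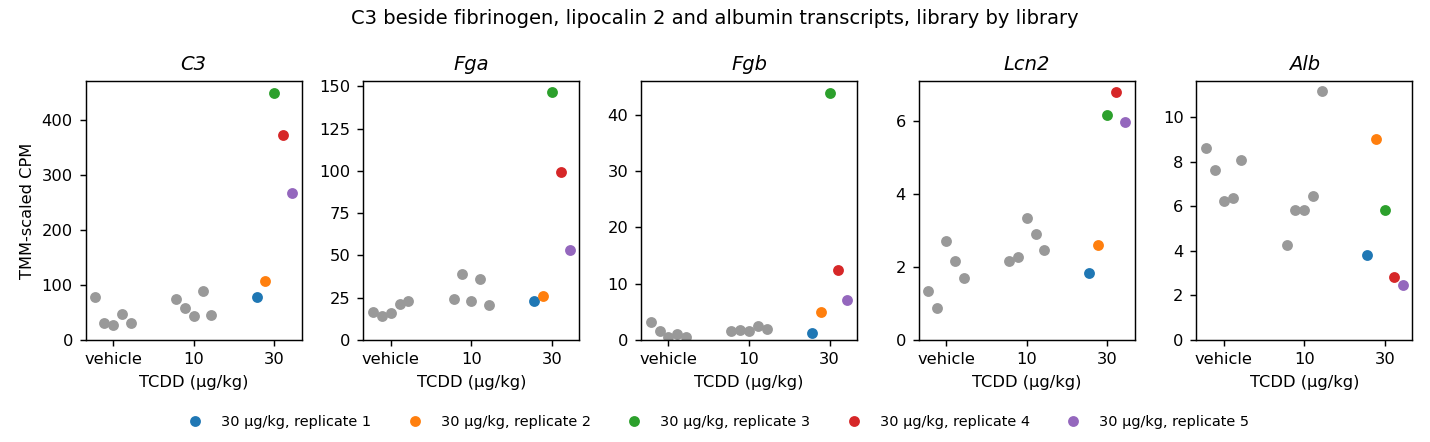
TMM-scaled CPM (vertical axes from 0) of C3, fibrinogen chains Fga and Fgb, Lcn2 and Alb in each library of the vehicle, 10 and 30 µg/kg groups, with the 5 libraries at 30 µg/kg in 1 colour each. Libraries 3, 4 and 5 are the highest for C3, Fga, Fgb and Lcn2, while libraries 4 and 5 are the lowest shown for Alb.

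Over the 40 libraries the genes most like C3 were Mgst1, a microsomal glutathione transferase (r = 0.90, rho = 0.79), Trf, encoding transferrin (0.89 and 0.77), and Apoe, encoding apolipoprotein E (0.88 and 0.64). For all 3 the rank correlation was lower than Pearson's. C3 and C4b, which peak at different doses, had r = 0.37 over the 40 libraries. After each group's mean was taken out r was 0.48.

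Serping1 encodes the C1 inhibitor, the serpin in plasma that blocks C1r, C1s and the lectin pathway proteases. It rose gradually, with little spread. Vehicle libraries held 64.1, 54.7, 55.4, 77.5 and 78.3 CPM. The 3 µg/kg libraries held 85.7, 76.1, 74.6, 76.3 and 92.0 CPM, those at 10 µg/kg 104, 107, 82.7, 114 and 102 CPM, and those at 30 µg/kg 105, 115, 83.3, 94.5 and 102 CPM. Every library at 10 and 30 µg/kg lay above every vehicle library, and 2 of 5 did at 3 µg/kg. At 10 and 30 µg/kg 6.15% and 6.41% of tested genes did not overlap vehicle in either direction. Serping1's log2 fold change was 0.63 ± 0.10 at 10 µg/kg (edgeR adjusted p = 3.89e-05) and 0.60 ± 0.11 at 30 µg/kg (adjusted p = 4.61e-05). It was 0.30 ± 0.11 at 3 µg/kg, which was not called (adjusted p = 0.243). Between 1 and 30 µg/kg Serping1 rose by 0.44 ± 0.10 (adjusted p = 0.00242), and its trend slope was 0.10 (adjusted p = 1.37e-08). Its closest genes were Emcn, an endothelial sialomucin (r = 0.87, rho = 0.84), Ahrr, the AhR repressor and an AhR target (0.87 and 0.83), and Axl, a receptor tyrosine kinase (0.86 and 0.81). Of 8 endothelial markers, 6 were called higher at 10 µg/kg and 5 at 30 µg/kg, with list medians of 0.42 and 0.44, and their part in the Serping1 change was not tested. C1ra and Serping1, a protease and its inhibitor, had r = 0.80 over the 40 libraries and r = 0.59 after each group's mean was taken out.

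Cfi encodes factor I, the protease that inactivates C3b and C4b fragments. Its group means lay between 5.16 and 6.35 CPM, and its largest change was -0.26 ± 0.23 at 1 µg/kg (edgeR adjusted p = 0.883). Its trend slope was 0.01 ± 0.02 (adjusted p = 0.894).

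Cd55 encodes decay-accelerating factor, a membrane protein that takes C3 convertases apart on the cell's own surface. It was called lower at the top dose and at no other. Vehicle libraries held 8.07, 7.29, 13.8, 9.93 and 11.1 CPM, and libraries at 30 µg/kg held 9.32, 8.71, 4.54, 6.12 and 6.26 CPM. Libraries 3, 4 and 5, the libraries with the highest C3, were the 3 below every vehicle library, and the 2 groups overlapped. Cd55 fell by 0.52 ± 0.18 on the log2 scale against vehicle (edgeR adjusted p = 0.0367), by 0.72 ± 0.18 against 10 µg/kg (adjusted p = 0.0153) and by 0.58 ± 0.18 against 1 µg/kg (adjusted p = 0.0237). At 10 µg/kg the Cd55 libraries had stood at 8.97 to 14.0 CPM, and all doses from 0.03 to 10 µg/kg had means between 10.5 and 12.3 CPM. The call against vehicle at 30 µg/kg was lost when vehicle library 3, 4 or 5 (adjusted p = 0.19, 0.0561 and 0.0764) or library 3, 4 or 5 of the dose group was left out, the last 2 with adjusted p = 0.1 and 0.0887. It was also lost with limma-voom (0.0534), the first stranded count (0.247) and a fit of the 10 libraries compared (0.181). The call against 10 µg/kg was lost without library 3 or 4 at 30 µg/kg or library 4 at 10 µg/kg (adjusted p = 0.104, 0.0605 and 0.0531), and that against 1 µg/kg without library 3, 4 or 5 at 30 µg/kg (0.108, 0.0693 and 0.0593) or library 3 or 5 at 1 µg/kg (0.0586 and 0.1). Over the 40 libraries Cd55 and C3 had r = -0.69, and r = -0.56 after each group's mean was taken out. The genes most like Cd55 were Slitrk6 (r = 0.82, rho = 0.74), Chpt1, a phosphatidylcholine synthesis enzyme (0.82 and 0.68), and Mpv17l (0.81 and 0.57).

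C3ar1 encodes the receptor for C3a, the small fragment released from C3, and is carried mainly by myeloid cells. It was the lowest of the 9 per kilobase in vehicle (0.313 ± 0.0867 CPM per kb), and it rose about 4-fold. Vehicle libraries held 1.73, 1.72, 0.864, 1.18 and 1.25 CPM. The 1 µg/kg libraries held 2.95, 1.56, 1.88, 5.08 and 2.55 CPM and at 3 µg/kg 3.32, 1.69, 3.19, 2.48 and 5.09 CPM, with 4 of 5 above vehicle at each dose. At 10 µg/kg they held 5.64, 4.85, 5.27, 5.06 and 6.14 CPM and at 30 µg/kg 5.11, 4.98, 3.80, 6.18 and 6.11 CPM. None of the libraries at 10 or 30 µg/kg overlapped vehicle, and 6.15% and 6.41% of tested genes did not overlap vehicle in either direction at these doses.

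The log2 fold change of C3ar1 was 1.24 ± 0.31 at 3 µg/kg (edgeR adjusted p = 0.026), 2.00 ± 0.31 at 10 µg/kg (adjusted p = 8.61e-06) and 1.96 ± 0.31 at 30 µg/kg (adjusted p = 7.53e-06). The value at 1 µg/kg was 1.06 ± 0.31 (adjusted p = 0.153). The step from 0.3 to 1 µg/kg was nevertheless called, at 1.36 ± 0.32 (adjusted p = 0.0395), when 0.213% of all tested genes were called in that comparison. C3ar1 at 0.3 µg/kg had the lowest mean of any group, 1.07 ± 0.64 CPM. Between 1 and 30 µg/kg C3ar1 rose by 0.90 ± 0.29 (adjusted p = 0.0298), and its trend slope was 0.33 (adjusted p = 1.78e-09). The call at 3 µg/kg was lost when vehicle library 3, 4 or 5 (adjusted p = 0.0984, 0.0609 and 0.0607) or library 1, 3 or 5 of that dose group (0.0502, 0.0501 and 0.207) was left out, and with limma-voom (0.0549), either stranded count (0.246 and 0.111) or a fit of the 10 libraries compared (0.0902). The step from 0.3 to 1 µg/kg was lost in 7 of 10 such fits, with adjusted p from 0.0608 to 0.495, the last without library 4 at 1 µg/kg, and the rise from 1 to 30 µg/kg in 6 of 10, with adjusted p from 0.0512 to 0.106. The calls at 10 and 30 µg/kg held in every alternative run.

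C3ar1 moved beside C1qa, which encodes a chain of C1q (r = 0.88, rho = 0.85), Axl (0.87 and 0.85) and Lgals3bp (0.87 and 0.82). Of 10 macrophage markers, 2, 5, 7 and 7 were called higher at 1, 3, 10 and 30 µg/kg, with median log2 fold changes of 0.69, 0.82, 1.01 and 0.83, while C3ar1 changed by 1.06, 1.24, 2.00 and 1.96. The summed markers ranged over 81.5 to 140.4 CPM in the vehicle group, of which Csf1r made up 28.5 to 84.4 CPM. They ranged over 200.4 to 223 CPM at 10 µg/kg and over 139.5 to 210.1 CPM at 30 µg/kg. The macrophage marker Adgre1 averaged 3.18 ± 0.60 CPM in vehicle libraries, 9.07 ± 0.67 CPM at 10 µg/kg and 8.61 ± 2.96 CPM at 30 µg/kg. Csf1r, expressed by the same cells, stood at 76.8 ± 7.35 CPM at 10 µg/kg and 54.6 ± 15.8 CPM at 30 µg/kg. Both Csf1r means lay within the vehicle range of 28.5 to 84.4 CPM, whose low end came from vehicle libraries 1 and 2. No macrophage marker was at 0 in any library. The part of macrophage number in the C3ar1 change was not tested.

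**Figure D3:**
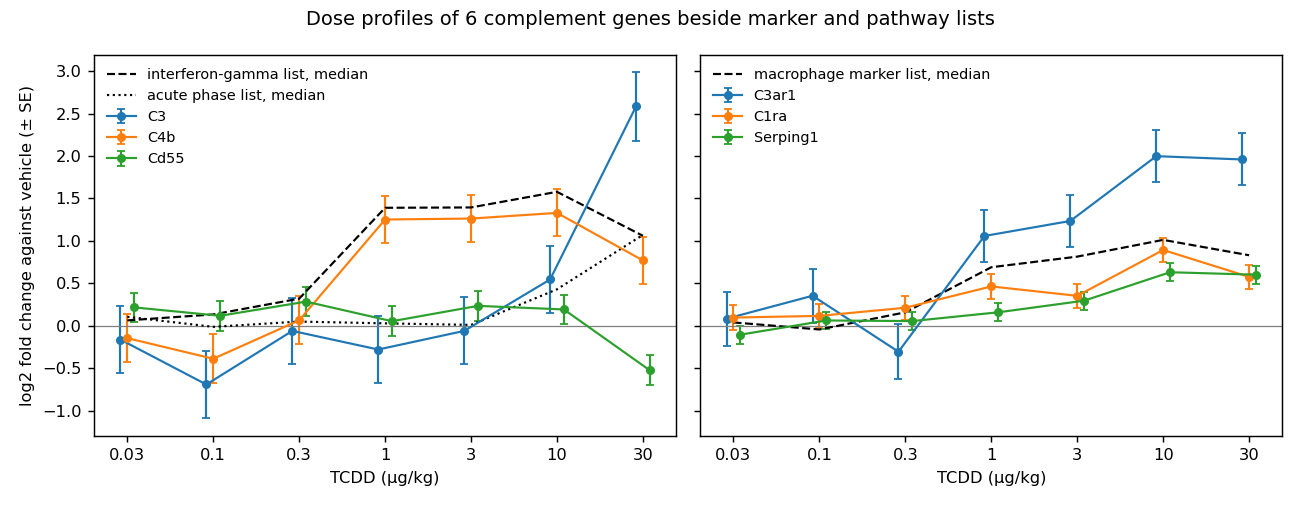
Log2 fold change against vehicle (± SE from edgeR) by TCDD dose for 6 complement genes, with dashed or dotted lines for the median log2 fold change of the interferon-gamma, acute phase and macrophage lists. C4b has its step at 1 µg/kg, C3 and the acute phase median are highest at 30 µg/kg, and C3ar1 reaches 2.00 at 10 µg/kg; all values share the same 5 vehicle libraries.

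Compared dose by dose, the 9 genes split in where they moved. Between neighbouring doses, 1 gene was called from 0.3 to 1 µg/kg (C3ar1) and 2 from 10 to 30 µg/kg (C3 and Cd55), where 2.7% of all genes were called. None of the 9 was called from 0.03 to 0.1, 0.1 to 0.3, 1 to 3 or 3 to 10 µg/kg, steps at which 0%, 0.00577%, 0.0115% and 0.11% of all genes were called. At these 4 steps 0, 1, 1 and 3 of the 9 had an unadjusted p under 0.05 in edgeR, and DESeq2 called 1 of them from 3 to 10 µg/kg. From 1 to 30 µg/kg 4 genes were called, against 13% of all genes: C3, Serping1 and C3ar1 were higher and Cd55 was lower. C4b, C2 and C1ra differed between 1 and 30 µg/kg by -0.48 ± 0.27, 0.28 ± 0.20 and 0.11 ± 0.14, none of them called (edgeR adjusted p = 0.283, 0.43 and 0.698).

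Among the rest of the complement system, 54 further genes were listed and 40 had enough counts to be tested. None was called at 0.03, 0.1 or 0.3 µg/kg by edgeR, DESeq2 or limma-voom, and 1, 0 and 3 of them had an unadjusted p under 0.05 there. At 1 µg/kg 1 of the 40 was called, at 3 µg/kg 4 and at 10 µg/kg 11, all higher, where 0.513%, 1.09% and 4.82% of all tested genes were called. At 30 µg/kg 14 were higher and 5 lower, against 15.9% of all genes in either direction, and in the trend 16 rose and 6 fell, against 19.8%. Without vehicle libraries 1 and 2 the counts at these 4 doses were 1, 4, 11 and 17. The median log2 fold change of the 40 was 0.33 at 30 µg/kg, beside 0.01 for all tested genes.

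Among these genes C1qa was the one called at the lowest dose. C1qa, C1qb and C1qc encode the 3 chains of C1q, made mainly by macrophages. C1qa was called at 1, 3, 10 and 30 µg/kg, with log2 fold changes of 0.85, 0.90 and 1.36 at the first 3 of these doses. With the second stranded count its calls at 1 and 3 µg/kg were lost (edgeR adjusted p = 0.0991 and 0.0587). Its mean was 11.8 ± 1.88 CPM in vehicle, and the top dose had 33.2 ± 6.35 CPM. C1qb passed the test from 3 µg/kg (a call lost without vehicle library 3 or dose library 5, adjusted p = 0.0508 and 0.075) and reached 1.35 ± 0.15 at 30 µg/kg, and C1qc from 10 µg/kg, where it was 1.22 ± 0.17, and 1.29 ± 0.17 at 30 µg/kg. C1s1, the substrate of C1r, rose by 0.54 ± 0.15 at 10 µg/kg and 0.45 ± 0.15 at 30 µg/kg, and 18.4% of its exonic bases are shared with an antisense gene. Its call at 10 µg/kg was lost without vehicle library 3 or 5 or dose library 2 or 5 (edgeR adjusted p = 0.117, 0.051, 0.12 and 0.0589), and that at 30 µg/kg without vehicle library 2, 3 or 5 or dose library 1 or 2 (0.0527, 0.146, 0.0666, 0.075 and 0.153). C1rl, a C1r-like protease, was lower at 30 µg/kg at -0.44 ± 0.10, and so was the mannose-binding lectin gene Mbl1 at -0.93 ± 0.27. The Mbl1 call was lost with the first stranded count (edgeR adjusted p = 0.27) and in a fit of the 10 libraries compared (0.0601). In all, 4 of 12 tested recognition and protease genes were called higher and 2 lower at 30 µg/kg.

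Of the other convertase genes (C4a, Cfd and Cfp), 0 of 3 were called at any dose in edgeR (1 of 3 had an unadjusted p under 0.05 at 10 and at 30 µg/kg), and Cfp, which encodes the convertase stabiliser properdin, was called in the trend (slope 0.07, edgeR adjusted p = 0.0176). In the terminal pathway that forms the membrane pore, C7 rose by 1.11 ± 0.21 at 10 µg/kg and 0.80 ± 0.21 at 30 µg/kg. The C7 call at 30 µg/kg was lost without vehicle libraries 1 and 2 (edgeR adjusted p = 0.0828) and with the first stranded count (0.0764). C8g was lower at 30 µg/kg at -0.66 ± 0.17, a call lost in a fit of the 10 libraries compared (edgeR adjusted p = 0.139). Of 7 listed terminal genes 4 were tested, and Hc (C5), C8b and C9 were not, with at most 6, 7 and 13 counts in a library.

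Regulators went both ways. Clu, encoding clusterin, was lower at 30 µg/kg at -0.42 ± 0.09. A fit of the 10 libraries compared lost the Clu call (edgeR adjusted p = 0.0535). Cpn2, a carboxypeptidase N subunit, was higher at 30 µg/kg at 2.45 ± 0.79 from a vehicle mean of 0.175 CPM, and Cpb2, encoding a plasma carboxypeptidase that inactivates C3a and C5a, was lower at -1.58 ± 0.50. The Cpn2 call was lost without vehicle library 2, 3 or 4 or dose library 4 or 5 (edgeR adjusted p from 0.0545 to 0.0896), and the Cpb2 call without vehicle library 3 or 4 or dose library 4 or 5 (from 0.0825 to 0.103). Cpb2 was also lost with limma-voom (0.107), either stranded count (0.0703 and 0.0737) and a fit of the 10 libraries compared (0.163). Cpn2 was also lost with limma-voom (0.0727), the second stranded count (0.171) and without vehicle libraries 1 and 2 together (0.107). Cpn1, the catalytic subunit of carboxypeptidase N, was higher at 0.51 ± 0.12 (edgeR adjusted p = 0.00251) and was named after its values were seen. The Cpn1 call was lost in a fit of the 10 libraries compared (edgeR adjusted p = 0.126). Among 5 tested membrane regulators other than Cd55, 1 was called, Thbd (thrombomodulin), at 0.58 ± 0.11 at 10 µg/kg and 0.68 ± 0.11 at 30 µg/kg. Cd46, encoding membrane cofactor protein, was at 0.80 ± 0.31 at 30 µg/kg and was not called there (adjusted p = 0.069), though its trend was (adjusted p = 0.0162), a call lost without the 30 µg/kg group (0.193) and with either stranded count (0.155 and 0.195).

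Receptor genes were called higher at the doses at which C3ar1 was. Of 8 tested receptor genes 5 were called higher and none lower at 30 µg/kg. C5ar1, the receptor for C5a, had a vehicle mean of 0.922 ± 0.438 CPM, which became 3.81 ± 0.375 CPM at 10 µg/kg and 3.76 ± 1.10 CPM at 30 µg/kg, or 2.03 ± 0.38 and 2.02 ± 0.38 on the log2 scale. Itgax and Itgb2, subunits of the C3 fragment receptor CR4, rose from 3 µg/kg and had their highest values at 10 µg/kg, 1.51 ± 0.27 and 1.27 ± 0.20. The Itgb2 call at 3 µg/kg was lost without vehicle library 2, 3 or 4 (edgeR adjusted p = 0.052, 0.0872 and 0.0555). It was lost without dose library 2 or 4 (0.0874 and 0.0531). The first stranded count and a fit of the 10 libraries compared also lost it (0.29 and 0.0968). The Itgax call at 3 µg/kg was lost without dose library 5 (0.082) and with the second stranded count (0.0739). At 30 µg/kg the Itgax call was lost without vehicle library 4 or dose library 1 or 2 (0.0677, 0.0626 and 0.141). It was also lost with limma-voom (0.101), the second stranded count (0.0972) and a fit of the 10 libraries compared (0.141). That fit lost the Itgb2 call at 30 µg/kg too (0.0654). Itgam, the alpha subunit of CR3, was called at 30 µg/kg only (2.23 ± 0.57, from 0.299 CPM in vehicle). Of its exonic bases 68.7% are shared with another gene model. The second stranded count lost this call (edgeR adjusted p = 0.158) and the C5ar1 calls at 10 and 30 µg/kg (0.0762 and 0.0607). Cd93, an endothelial and myeloid C1q receptor candidate, rose by 0.68 ± 0.14 at 10 µg/kg and 0.85 ± 0.14 at 30 µg/kg. Its call at 10 µg/kg was lost without vehicle libraries 1 and 2 together (edgeR adjusted p = 0.0747). The macrophage marker counts given beside C3ar1 apply to these genes and to C1q, and their part was not tested.

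**Figure D4:**
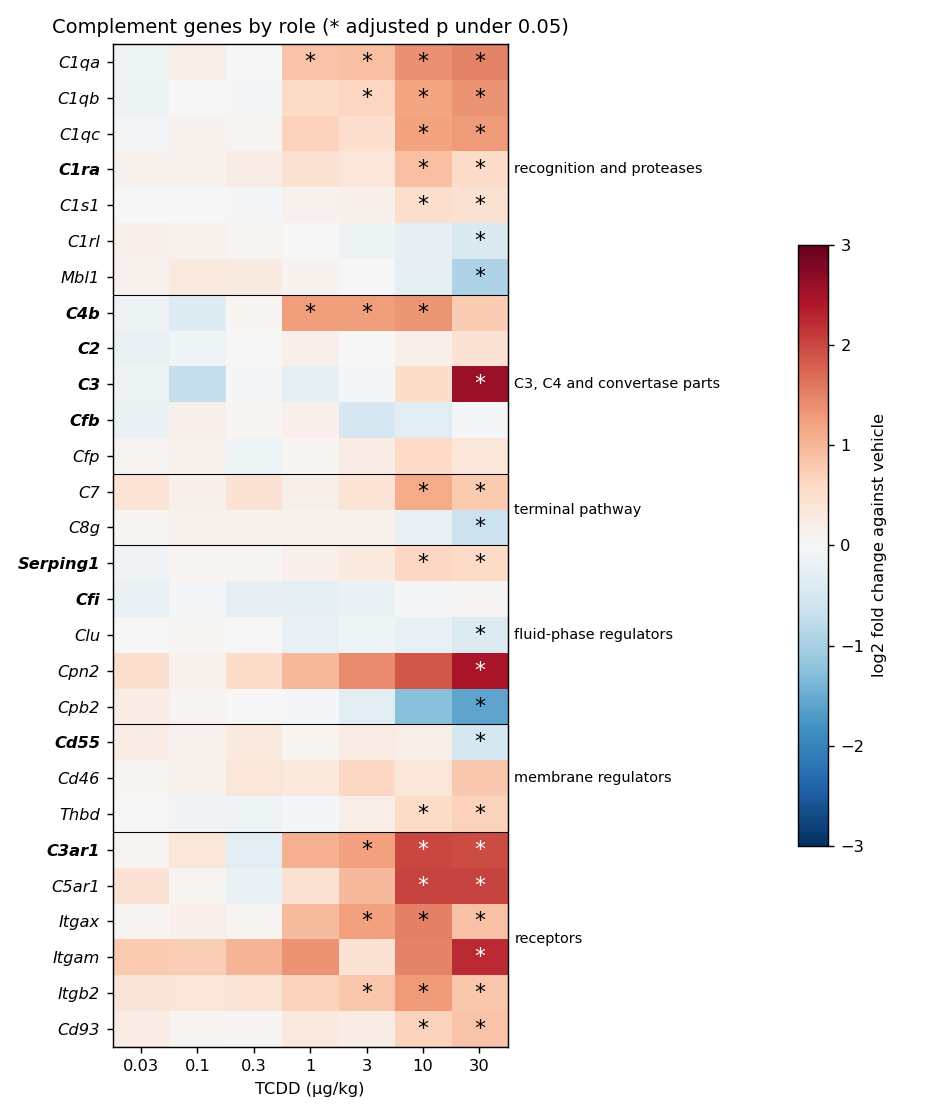
Log2 fold change against vehicle (colour, red higher and blue lower) for the 9 complement genes (bold) and 19 further complement genes, by TCDD dose (columns, µg/kg) and grouped by role. Asterisks mark an edgeR adjusted p under 0.05. The further genes were drawn only from those called at a dose or in the trend, so uncalled ones are not shown. Of 8 tested receptor genes other than C3ar1, 4 were called at 10 µg/kg and 5 at 30 µg/kg. Cd55, Clu, C1rl, Mbl1, C8g and Cpb2 are called lower at 30 µg/kg.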

How the data were processed

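Kidney RNA from 40 mice was sequenced as paired-end libraries. The authors deposited raw gene counts for each library. FastQC 0.11.7, Trimmomatic 0.39, STAR 2.7.3a and DESeq2 are named in the submitters' processing notes with the builds GRCm39 and mm10, whose roles are not given in the sources used here. Nor is the annotation. Unstranded counts were used as deposited. The 2 stranded counts split the reads about evenly, with 50.35% to 51.04% of them in the first. Fits of either stranded count therefore used fewer reads. Of 55359 identifiers 52083 were paired with symbols, and the 3276 others held 0.663% of counts.

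Counts were filtered with filterByExpr, scaled by TMM and fitted with edgeR 4.0.16 (R 4.3.3, quasi-likelihood, robust) over all 40 libraries, with Benjamini-Hochberg adjustment over 17345 genes and a threshold of 0.05. The biological coefficient of variation was 17.1%. A trend used dose ranks 0 to 7. Each SE is the fold change divided by the root of F. Levels on the log2 scale carry a prior count of 2. The fit was tested on simulated data. Replicate libraries differed by more than counting noise (chi-square per degree of freedom 6.9 to 78.8 over 80 pairs). The 9 genes had at least 11 counts in each library.

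The genes, lists and motifs were chosen with earlier results of these data known. The set of motifs and their spelling were settled after matches had been seen, and an NF-kB motif whose matches among the 9 genes changed with its spelling was left out. All 9 genes are named at every dose. Of other complement genes, up to 20 called at a dose or in the trend are named by lowest trend p, 1 of which is not reported here. For each called gene of the 9, the 3 genes with the highest Pearson correlation are named. Replicates are numbered in accession order. Alternatives were DESeq2 1.42.0, RLE scaling, no filter, either stranded count, fits of 10 libraries, limma-voom 3.58.1, non-robust fits, a term for the run of title numbers (1 to 27 or 28 to 53), trends without an end group, libraries left out in turn and, chosen after seeing the data, vehicle libraries 1 and 2 left out together. Promoter windows are from RefSeq (GRCm38.p6), exon overlaps and shared words from GENCODE M21, which may not be the annotation the authors used.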

Additional observations from a re-analysis of the deposited data

Results flagged for a closer look

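In 80 groups of 5 (the 9 genes and the total counts, each in 8 dose groups), 9 held a library set apart. Its distance to its nearest neighbour took up most of the group's range. Chance gives about 1 group in 20 if values are normally distributed, which was not checked for these untransformed values. In all 9 groups the library set apart was the highest. For C3 it was library 1 at 0.1 µg/kg, at 45.7 CPM with the next at 25.5 CPM. For C2 it was library 4 at 0.03 µg/kg (8.43 CPM, next 6.26), library 4 at 1 µg/kg (9.87 CPM, next 8.11) and library 1 at 3 µg/kg (9.81 CPM, next 7.37). For Cfb it was vehicle library 2, at 11.65 CPM with the next at 5.55 CPM. For C3ar1 it was library 5 at 0.3 µg/kg, at 2.20 CPM with the next at 0.927 CPM. Total gene counts stood apart in library 2 at 0.1 µg/kg (22659733), library 1 at 1 µg/kg (20292573) and library 5 at 30 µg/kg (24017319). No library of the 10 or 30 µg/kg groups was marked for any of the 9 genes.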

How the results depend on the processing

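No paired analysis was possible because the labels give no replicate number that groups share. Of 2596 alternative values of 82 gene results, 2452 kept direction and side of the threshold, 120 lost the call, 9 gained it and 15 changed direction. With DESeq2 all genes called were 7 at 0.03 µg/kg and 3 at 0.3 µg/kg, other complement genes at 1 µg/kg 3, and of the 9 genes 2 for 1 against 0.3 µg/kg and 1 for 10 against 3 µg/kg. The first stranded count of the files (column 3) gave 0 of the 9 at 1 µg/kg and 1 at 3 µg/kg, and the second (column 4) gave 1 of the 9 and 2 other complement genes at 3 µg/kg and 0 other complement genes at 1 µg/kg. Fits of 10 libraries gave 0 of the 9 at 1 and at 3 µg/kg, 113 genes at 3 µg/kg, and 9 other complement genes and 969 genes at 30 µg/kg. Limma-voom gave 1 of the 9 at 3 µg/kg. Without the filter, or with a term for the title run, 2 other complement genes were called at 1 µg/kg. The trend without the 30 µg/kg group called 1399 genes. Without vehicle libraries 1 and 2 all genes called were 56, 108 and 515 at 1, 3 and 10 µg/kg. Some fits had fewer libraries, and either stranded count held fewer reads than the unstranded count. Apart from that the cause was not tested.

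Leaving out 1 library at a time gave 0 to 1 genes at 0.03 µg/kg (1 without vehicle library 3). At 1 µg/kg it gave 0 to 1 of the 9 and 1 to 3 other complement genes. At 3 µg/kg it gave 0 to 2 of the 9 and 2 to 4 other complement genes (2 without vehicle library 3 or dose library 5). All genes called there were 119 to 199 (119 without dose library 5). It gave 0 to 2 of the 9 for 1 against 0.3 µg/kg, 1 to 2 for 30 against 10 µg/kg and 2 to 4 for 30 against 1 µg/kg. At 10 µg/kg all such fits called 4 of the 9, and at 30 µg/kg 4 to 7. Of 35 calls of other complement genes at single doses, 4 and 9 were lost with the first and second stranded counts, 10 in fits of 10 libraries, 3 with limma-voom, 4 without vehicle libraries 1 and 2 and 0 with DESeq2 (1 could not be followed with the first stranded count and 1 in fits of 10 libraries). The calls of C3, C1ra, Serping1 and C3ar1 at 30 µg/kg and of C4b, C1ra, Serping1 and C3ar1 at 10 µg/kg held in every alternative run.

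Values near 0 changed sign. Cfb at 30 µg/kg, -0.05, was 0.013 with column 4 counts, 0.34 without vehicle libraries 1 and 2, and -0.39 to 0.31 over single libraries left out. Cfi at 30 µg/kg, 0.03, ranged from -0.13 to 0.11 in the same way. The Cfi slope was -0.003 with column 3 counts, -0.011 without the 30 µg/kg group and -0.007 to 0.016 over libraries left out, and the Cd55 slope was 0.019 without the 30 µg/kg group. Depth limits C3ar1 most, with as few as 11 counts in a library.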

Other observations

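Other lists were followed in the same libraries, where 0.513%, 1.09%, 4.82% and 15.9% of all tested genes were called at 1, 3, 10 and 30 µg/kg. Of 12 type I interferon targets 3, 8, 11 and 10 were called higher at 1, 3, 10 and 30 µg/kg, and of 9 NF-kB targets 1, 0, 5 and 5. Of 7 AhR targets 2, 5, 5 and 6 were called higher at those doses. Podocyte markers were higher for 5 and 3 of 6 genes at 10 and 30 µg/kg, and fibroblast markers for 2 and 3 of 8. Proximal tubule markers were lower for 2 and 5 of 8 genes at these doses (1 was higher at 30 µg/kg), collecting duct markers for 4 and 3 of 6, and distal convoluted tubule markers for 2 and 1 of 3, the last being a single gene. No gene was called in edgeR at 1 to 30 µg/kg among 4 thick ascending limb markers or 6 T cell markers. Nor was any among 6 B and plasma cell markers or the 3 tested neutrophil markers of 6. At 10 µg/kg 2 neutrophil, 2 thick ascending limb and 1 T cell marker had an unadjusted p under 0.05 in edgeR. In the trend 2 of the 3 neutrophil and 1 of the 6 T cell markers were called higher, against 11% of all genes. The neutrophil median log2 fold change was 0.516, 1.055, 1.189 and 0.625 at 1, 3, 10 and 30 µg/kg. Their summed level was at most 5.901 CPM in a library. Of 6 adipocyte markers 1 was called, lower, at 30 µg/kg, a share near that of all genes. The median log2 fold change of the 6 at that dose was 0.69, in the other direction.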
